A study of Mus musculus with 4 samples.

Results

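The binding of FOXA2 was set against elongating RNA polymerase II in the developing mouse uterus, from 1 chromatin immunoprecipitation and sequencing (ChIP-seq) library for each protein. Both libraries were made from whole uterus of female mice at postnatal day 12 (PD12), and the labels name no strain, genotype or treatment. One was precipitated with a goat polyclonal antibody to FOXA2. The other was precipitated with a rabbit polyclonal antibody to the polymerase's C-terminal repeat phosphorylated on serine 2, called POL2 in the labels. The members are the intervals that the authors listed for these 2 libraries on chromosomes 1 to 19, which were 807 FOXA2 intervals and 9791 POL2 intervals. The series as a whole lists 35977 intervals in 4 lists, the other 2 being the same antibodies in the adult uterus on days 2.5 and 3.5 of pseudopregnancy, the hormonal state after a sterile mating. Each group had 1 library, so there was no replicate, no test was made and no p-value is given. The limits given after a share, a density or a ratio are exact 95% limits for counting error alone, and neighbouring intervals of a list are not independent replicates.

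FOXA2 is a forkhead transcription factor that can bind its sites in closed chromatin and often does so at enhancers away from genes. In the uterus it is made in the glandular epithelium, where it is needed for the glands to form and, in the adult, for them to make the secretions that implantation requires. Phosphorylation of serine 2 marks polymerase that is moving through the body of a gene, so wide stretches of this signal follow transcribed genes. The glands are a minor part of the whole uterus at this age, beside stroma, luminal epithelium and muscle. A FOXA2 interval inside a POL2 stretch therefore does not show that both were present in the same cells, and fewer cells with FOXA2 cannot be told apart from less binding in each cell.

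The FOXA2 intervals had a median width of 317 bp (interquartile range 263 to 394) and covered 0.289 Mb. The POL2 intervals were wider, with a median of 5.4 kb (3.4 to 8.8 kb, the widest 89.4 kb), covered 69.6 Mb and are called domains here. No height, score or read count accompanies the intervals, so neither read depth nor the strength of an interval is known. The files name no genome build. Set against the GRCm38 gene table, 99 PD12 intervals, 77 of them on chromosome 7, started beyond the last gene of their chromosome, so the positions were not taken to be on GRCm38. No annotation or sequence of the files' own build was used here. For this reason the genes with both marks, the exon or intron at each region and the DNA sequence of the intervals are not given, and regions are named by the positions in the files.

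The first question was how far FOXA2 lay from elongating polymerase. About 1 in 5 FOXA2 centres lay inside a POL2 domain and about 1 in 2 lay inside or within 50 kb of one, while almost 1 in 4 lay over 200 kb away. For each FOXA2 interval the distance from its centre to the nearest domain was taken, with 0 for a centre inside. The same distance was taken for the centres of all 200 bp bins between the first and last listed base of each chromosome, 2400 Mb in all, as the background of chromosome length at each distance. Inside a domain lay 163 of 807 FOXA2 centres (20.2%, 95% limits 17.5 to 23.1), against 2.90% of bins. Within 10 kb lay 251 (31.1%, 27.9 to 34.4), against 8.65% of bins. Within 50 kb lay 408 (50.6%, 47.0 to 54.1), against 22.1% of bins, and within 100 kb lay 529 (65.6%, 62.2 to 68.8), against 32.5%. Over 200 kb from any domain lay 192 centres (23.8%, 20.9 to 26.9), against 54.3% of bins. The median distance was 47.3 kb for FOXA2 centres and 245 kb for bins. Among the 644 FOXA2 centres outside domains it was 76.0 kb (interquartile range 25.5 to 254 kb), against 262 kb for bins outside domains.

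**Figure D1:**
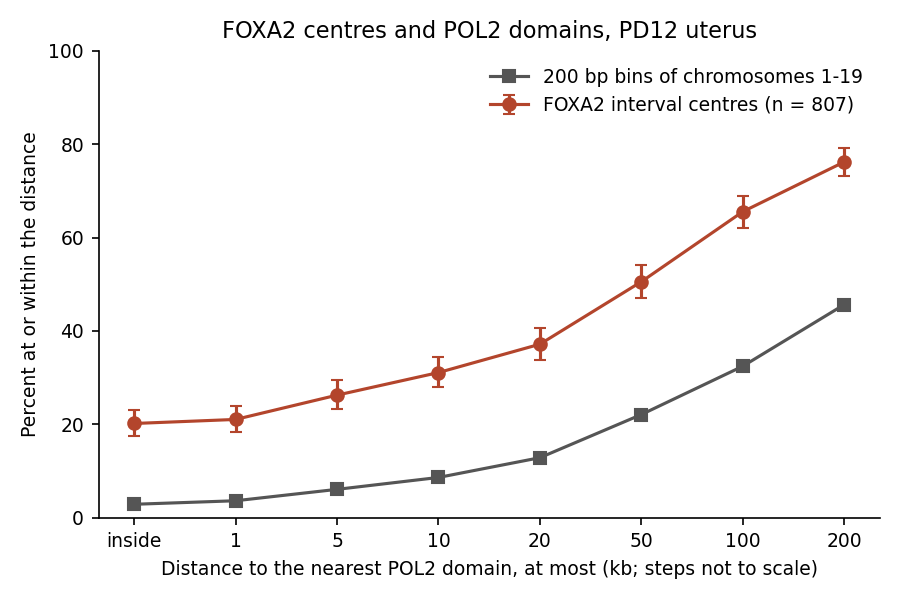
Percent of PD12 FOXA2 interval centres (circles, with exact 95% binomial limits) and of 200 bp bins (squares) at or within each distance of a PD12 POL2 domain; the horizontal steps are not to scale. FOXA2 lies above the bins at each distance drawn, from 20.2% against 2.90% inside domains to 76.2% against 45.7% within 200 kb.

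Read per length of chromosome, FOXA2 was densest inside the domains and least dense far from them. There were 2.34 FOXA2 centres per Mb inside domains (95% limits 2.00 to 2.73) and 0.276 per Mb outside (0.255 to 0.299), a ratio of 8.47 (7.09 to 10.1). The length counted includes stretches to which reads may not map, and their part in this ratio was not tested. Much of the outside length is far from any domain, so the surroundings were also used. In the 50 kb next to domains the density was 0.531 per Mb (0.467 to 0.602), and the density inside was 4.41 times (3.59 to 5.39) as high. In the 10 kb next to them it was 0.638 per Mb (0.512 to 0.787), and the density inside was 3.67 times (2.81 to 4.81) as high. The step between a domain and its nearest 10 kb was thus larger than the difference between these 10 kb and the whole 50 kb flank. Between 10 and 100 kb it was nearly level, at 0.483, 0.487 and 0.487 per Mb in 3 successive bands, then 0.272 (0.217 to 0.336) from 100 to 200 kb and 0.147 (0.127 to 0.170) beyond.

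The first kb outside a domain held few FOXA2 centres. There were 7 in 18.1 Mb there, or 0.386 per Mb (0.155 to 0.796), and 42 in 58.6 Mb between 1 and 5 kb, or 0.717 per Mb (0.517 to 0.969). The ratio of these was 0.539 with limits of 0.204 to 1.21, which include 1, so at PD12 a dip at the edge was not detectable with this number of intervals. In the adult, with 107 and 472 centres in the same bands, the ratio was 0.696 (0.559 to 0.860).

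**Figure D2:**
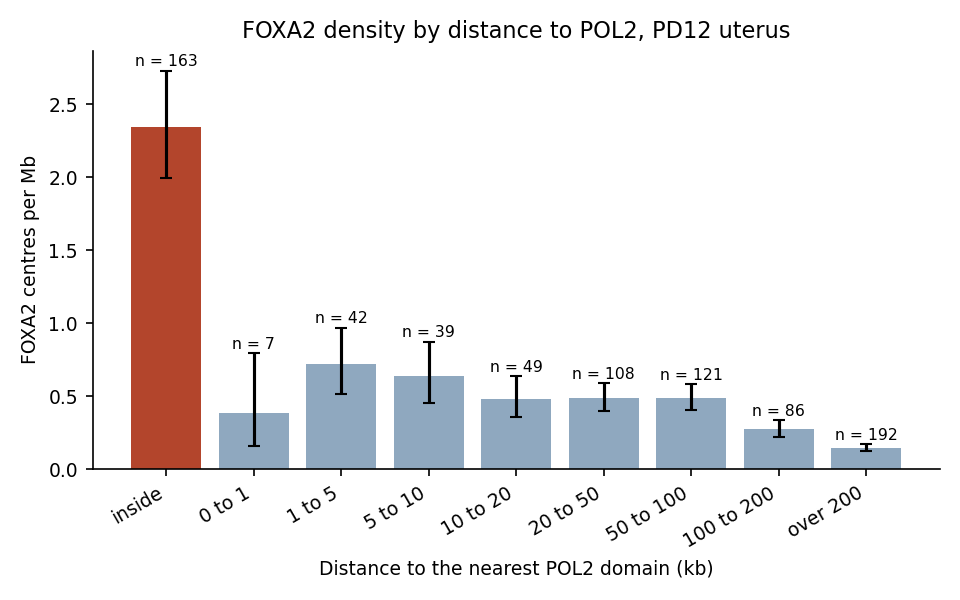
FOXA2 centres per Mb of chromosome in each band of distance to the nearest POL2 domain at PD12; bars start at 0, error bars are exact 95% Poisson limits, and n is the number of centres. The bar inside domains is at 2.34 per Mb, and the bars outside lie between 0.147 and 0.717.

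POL2 was also common in the wider surroundings of FOXA2 intervals. In windows of 500 kb to each side, domains covered a median of 3.78% of the window around FOXA2 centres and 1.06% around bins. Around the FOXA2 centres outside domains the median was 3.09%, against 0.960% around bins outside domains. Windows with no POL2 at all were found at 68 FOXA2 centres (8.43%, 6.60 to 10.6), against 33.6% of bins. A centre inside a domain cannot have such a window. Of the 644 centres outside domains the share was 10.6% (8.29 to 13.2), against 34.6% of bins outside. The bins include stretches to which reads may not map. Their part in these differences, and in those of distance and density above, was not tested.

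FOXA2 was denser inside domains than outside on 19 of 19 chromosomes, and its median distance to POL2 was below that of bins on 19 of 19. Chromosome 11 had the most FOXA2 intervals, 73, and also the highest share of bins inside POL2 domains, 5.27%, and 19 of its FOXA2 centres lay inside (26.0%, 16.5 to 37.6). The highest share inside was on chromosome 17, with 9 of 32 (28.1%, 13.7 to 46.7), and the lowest on chromosome 15, with 3 of 30 (limits 2.11 to 26.5%). These limits overlap, and the difference was not tested. On 3 chromosomes, 15, 18 and 19, the lower limit of the FOXA2 share fell below the share of bins. Median distances of FOXA2 ran from 20.2 kb on chromosome 5 to 87.9 kb on chromosome 2, and those of bins from 105 kb on chromosome 11 to 395 kb on chromosome 14.

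**Figure D3:**
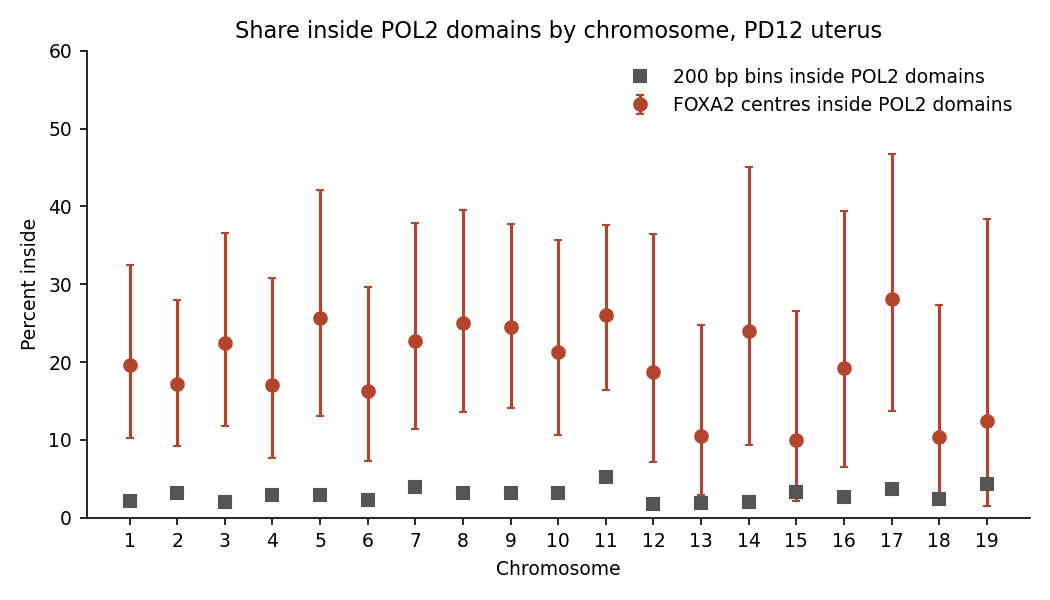
Percent of PD12 FOXA2 centres inside POL2 domains on each chromosome (circles, exact 95% binomial limits), beside the percent of 200 bp bins inside domains (squares). The circles lie between 3 of 30 intervals (chromosome 15) and 9 of 32 (chromosome 17), above the square on each of the 19 chromosomes, with wide limits where few FOXA2 intervals were listed.

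The next question was which FOXA2 intervals lay in or near elongating polymerase. Those inside domains were wider. Their median width was 402 bp (interquartile range 320 to 491), against 306 bp (255 to 357) outside and 285 bp (238 to 336) beyond 200 kb. When the list was cut into 5 equal classes by width, 8 of the 162 narrowest intervals lay inside a domain (4.94%, 2.16 to 9.50) and 71 of the 162 widest did (43.8%, 36.1 to 51.8). The share beyond 200 kb ran the other way, from 39.5% (31.9 to 47.5) of the narrowest to 10.5% (6.23 to 16.3) of the widest. Among intervals outside domains, the median distance went from 136 kb in the narrowest class through 98.4, 74.1 and 61.5 kb to 36.5 kb in the widest. Distance was measured from the centre, so a wide interval does not come closer by its length. Width can follow signal strength as well as the extent of binding, and the lists hold no signal to tell these apart.

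**Figure D4:**
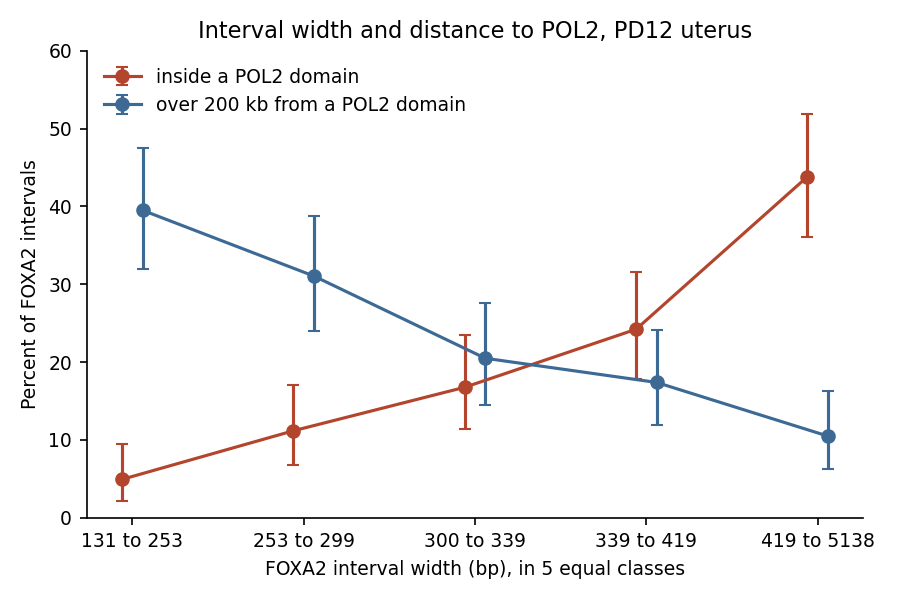
Percent of PD12 FOXA2 intervals inside a POL2 domain (red) and over 200 kb from one (blue) in 5 equal classes of interval width in bp; error bars are exact 95% binomial limits. The red points go from 4.94% to 43.8% and the blue points from 39.5% to 10.5%.

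In this short list, FOXA2 intervals with a close FOXA2 neighbour were few. No background share of neighbours was taken, so the counts do not show whether FOXA2 intervals cluster. Another FOXA2 centre lay within 10 kb for 34 intervals (4.21%), and 9 of these were inside POL2 domains (26.5%, 12.9 to 44.4), against 154 of the other 773 (19.9%, 17.2 to 22.9). With a neighbour within 50 kb, 28 of 80 were inside (35.0%, 24.7 to 46.5), against 135 of the other 727 (18.6%, 15.8 to 21.6). Neighbours can lie in the same domain, which these limits do not take into account, and the differences were not tested. The median distance to POL2 was 13.3 kb for these 80 intervals and 54.6 kb for the rest, but it ran the other way for the 34 intervals with a neighbour within 10 kb, at 81.5 kb against 47.3 kb for the rest.

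Seen from the polymerase, few domains held FOXA2, with 807 FOXA2 intervals listed for 9791 domains. A FOXA2 centre lay in 160 of 9791 domains (1.63%, 1.39 to 1.91), of which 157 held 1 centre and 3 held 2. Within 50 kb of a FOXA2 centre were 815 domains (8.32%, 7.78 to 8.89), and the median distance from a domain to the nearest FOXA2 centre was 645 kb. These values depend on the length of the FOXA2 list, and no background was taken for them. Per Mb, FOXA2 was denser inside domains than outside, at 2.34 against 0.276. Domains that held FOXA2 were wider, with a median of 9.2 kb (4.6 to 14.7 kb) against 5.4 kb (3.4 to 8.8 kb) for the others. A wider domain offers more room, and the share of domains with FOXA2 went from 0.576% (0.212 to 1.25) of those up to 2 kb to 8.89% (3.92 to 16.8) of those over 32 kb. Per Mb of domain there was no such rise. The density was 3.93 per Mb (1.44 to 8.56) in domains up to 2 kb, 3.42 (2.21 to 5.05) from 2 to 4 kb, 2.01 (1.45 to 2.71) from 4 to 8 kb, 2.37 (1.79 to 3.07) from 8 to 16 kb, 2.04 (1.31 to 3.04) from 16 to 32 kb and 2.23 (1.02 to 4.24) above.

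Of the 641 FOXA2 centres in gaps between neighbouring domains, 563 (87.8%) lay in gaps over 100 kb, which made up 93.2% of the gap length, and 316 (49.3%) lay in gaps over 500 kb, which made up 73.3% of it. Gaps of up to 5 kb between neighbouring domains numbered 2329 but made up 4.35 Mb and held 3 FOXA2 centres, or 0.689 per Mb (0.142 to 2.01). Gaps of 100 to 500 kb held 247 centres at 0.535 per Mb (0.471 to 0.606). Gaps over 500 kb, 1697 Mb in all, held them at 0.186 per Mb (0.166 to 0.208).

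The domains with the most FOXA2 centres showed different pictures in the adult. The widest of the 3 with 2 centres was on chromosome 8, 91043600 to 91129199, 85.6 kb long. Its FOXA2 intervals were at 91094308 to 91094645 and 91127878 to 91128179, 50.9 and 84.4 kb from the domain's start. Adult POL2 covered 7.4 kb of it, between these intervals, and no adult FOXA2 centre lay in it. The second was on chromosome 17, 71183200 to 71203399 (20.2 kb), with FOXA2 at 71195001 to 71195331 and 71202330 to 71202723. There adult POL2 covered 16.2 kb, and 2 adult FOXA2 intervals lay over the same positions as those of PD12. The third was on chromosome 8, 87492600 to 87510399 (17.8 kb), with FOXA2 at 87500326 to 87500823 and 87508440 to 87508760. Adult POL2 covered 13.4 kb of it in 2 pieces, and it held 3 adult FOXA2 centres, of which 1 interval overlapped the first of the PD12 intervals and none the other.

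**Figure D5:**
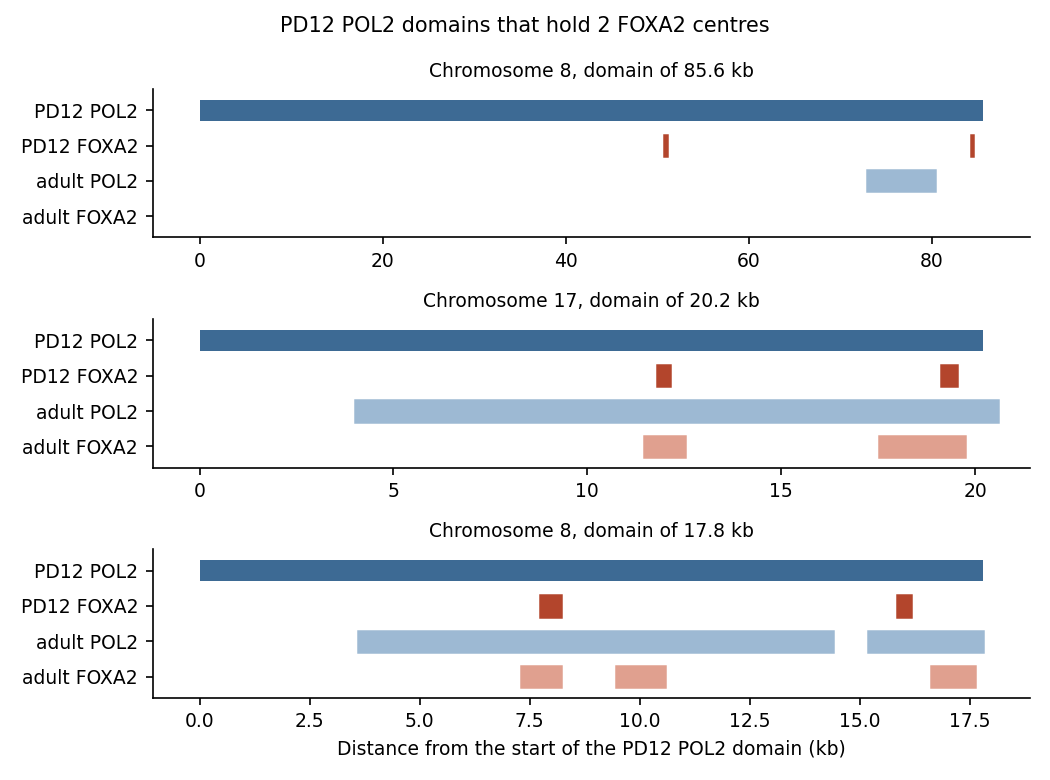
The 3 PD12 POL2 domains that hold 2 FOXA2 centres, drawn to scale in kb from the start of each domain, with the intervals of the 4 lists in rows. Both marks recur in the adult in the 20.2 and 17.8 kb domains, whereas the 85.6 kb domain holds 7.4 kb of adult POL2 and no adult FOXA2.

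Other wide domains with FOXA2 held a single centre each. On chromosome 15, 77586600 to 77654199 (67.6 kb), FOXA2 was at 77652549 to 77652793, near the domain's end, and an adult FOXA2 interval of 815 bp lay over it. Adult POL2 covered 67.4 kb of that domain. On chromosome 9, 120841800 to 120883599 (41.8 kb), FOXA2 at 120842224 to 120842727 lay 0.675 kb from the domain's start, and an adult FOXA2 interval of 1741 bp lay over it. On chromosome 2, 155969000 to 156006599 (37.6 kb), FOXA2 at 156005717 to 156006248 lay near the end, under an adult interval of 1413 bp. In contrast, the domains on chromosome 9, 72509200 to 72544599 (35.4 kb), and on chromosome 4, 154510200 to 154544199 (34 kb), were almost wholly covered by adult POL2 (35.2 and 31.4 kb), and neither held an adult FOXA2 centre.

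The widest FOXA2 interval inside a domain was on chromosome 2, 77762666 to 77765302 (2637 bp). Its domain, 77725200 to 77789999, was listed with the same ends in the adult, where no FOXA2 interval overlapped it. The widest FOXA2 interval of the whole list, 77810425 to 77815562 (5138 bp), lay beyond the end of this domain. Its centre was in POL2 of neither stage, and no adult FOXA2 interval overlapped it. Whether this place draws signal without regard to the antibody was not tested. The next widest interval inside a domain was on chromosome 1, 88383745 to 88384728 (984 bp), in a domain of 2.4 kb and again without adult FOXA2. Intervals on chromosome 11, 69571566 to 69572518 (953 bp), on chromosome 14, 79880723 to 79881618 (896 bp), and on chromosome 1, 180336020 to 180336912 (893 bp), were covered over their whole length by adult FOXA2. All 10 of the widest FOXA2 intervals inside PD12 domains had their centre in an adult POL2 domain as well, and 6 overlapped an adult FOXA2 interval, beside 87.1% and 66.3% of all FOXA2 intervals inside domains.

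The FOXA2 interval nearest to a domain without its centre inside was on chromosome 12, 106013384 to 106013538, 62 bp beyond the domain's end at 106013399, which the interval itself overlapped. Next came chromosome 3, 30402686 to 30402955, at 180 bp, and chromosome 7, 3287203 to 3287524, at 237 bp. The ends of the POL2 domains lie on steps of 200 bp, so distances this short are near their resolution. At the other extreme, the interval on chromosome 6, 61313671 to 61314015, lay 3623 kb from the nearest POL2 domain. Of the 10 farthest intervals, 4 were in 2 close pairs. One pair was on chromosome 2, 98502358 to 98503171 and 98506371 to 98507515, at 3037 and 3033 kb from PD12 POL2. The other was on chromosome 17, 39979794 to 39983693 and 39984353 to 39985798, at 2761 and 2764 kb. These 4 were the ones among the 10 that lay in adult POL2 domains, and 3 of them are among the 5 FOXA2 intervals at least 1 kb wide. The rest of these 5 are the intervals on chromosome 2 named above, 77762666 to 77765302 and 77810425 to 77815562. Whether such places draw signal without regard to the antibody was not tested. All 10 of the farthest intervals overlapped an adult FOXA2 interval, as did 77.1% of all those over 200 kb from POL2.

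The adult lists were not used to choose the intervals, and they gave a second readout of the same places. FOXA2 inside PD12 domains lay mostly in polymerase of both stages. Of the 163 centres, 142 (87.1%, 81.0 to 91.8) were in an adult POL2 domain, against 72.0% of bins inside PD12 domains. Of the 644 centres outside PD12 domains, 99 (15.4%, 12.7 to 18.4) were in an adult domain, against 1.88% of bins outside. In the first kb outside PD12 domains, 3 of 7 centres were in an adult domain (42.9%, 9.90 to 81.6), against 38.0% of bins there, so no excess was detectable with this number. At 1 to 5 kb from PD12 POL2, 45.2% (29.8 to 61.3) were in an adult domain, against 17.4% of bins at that distance. At 20 to 50 kb it was 21.3% (14.0 to 30.2) against 3.19%, and beyond 200 kb 5.21% (2.53 to 9.37) against 0.211%, where 4 of the 10 centres are the close pairs on chromosomes 2 and 17.

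Domains that held FOXA2 at PD12 were listed again in the adult in 149 of 160 cases (93.1%, 88.0 to 96.5), against 80.0% of all domains. Here an overlap of at least 1 bp with an adult domain counts as listed again. Wide domains recur more often whether or not they hold FOXA2, so classes of width were set side by side. From 2 to 4 kb, 22 of 25 domains with FOXA2 recurred (88.0%, 68.8 to 97.5), against 73.0% of all domains of that width. From 4 to 8 kb it was 37 of 42 (88.1%, 74.4 to 96.0) against 82.5%, and from 8 to 16 kb 54 of 57 (94.7%, 85.4 to 98.9) against 92.3%. Within each of these 3 classes the limits included the share of all domains. Of the narrowest domains, up to 2 kb, all 6 with FOXA2 recurred (limits 54.1 to 100%), against 49.95% of all domains of that width. Above 16 kb all 30 did, against 97.2% of all domains from 16 to 32 kb and 100% of wider ones. By length, adult POL2 covered 78.4% of domains with FOXA2 and 72.0% of all domains. This cover was higher with FOXA2 in each width class up to 32 kb. Above 32 kb it was lower, at 75.6% in the 8 domains with FOXA2 against 85.8% in all 90. These 8 include the 85.6 kb domain on chromosome 8, with 7.4 kb of adult POL2. The differences were not tested.

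Presence in the adult FOXA2 list was not higher for the intervals inside polymerase domains. An adult FOXA2 interval overlapped 582 of the 807 PD12 intervals (72.1%). It was 108 of 163 inside PD12 domains (66.3%, 58.4 to 73.5), 474 of 644 outside (73.6%, 70.0 to 77.0) and 148 of 192 beyond 200 kb (77.1%, 70.5 to 82.8). The limits overlap, and the differences were not tested. FOXA2 intervals in POL2 of neither stage numbered 545, and 410 of these (75.2%, 71.4 to 78.8) were in the adult FOXA2 list. Of the 142 intervals whose centre lay in POL2 domains of both stages, 95 overlapped adult FOXA2 (66.9%, 58.5 to 74.6). Of the 99 outside PD12 POL2 but in adult POL2, 64 did (64.6%, 54.4 to 74.0). Neither share was above the 72.1% of all PD12 intervals.

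In the adult lists, measured the same way, 1956 of 10235 FOXA2 centres lay inside adult domains (19.1%, 18.4 to 19.9), against 3.92% of bins. The density was 5.79 times (5.51 to 6.09) higher inside than outside and 3.42 times (3.23 to 3.61) higher than in the 50 kb next to domains, beside 8.47 and 4.41 times at PD12. The limits of the first pair of ratios do not overlap, and those of the second pair do. The adult lists are longer for both antibodies and their depth is unknown, so the stage cannot be told apart from the length of the lists.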

How the data were processed

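Per the file headers, each deposited list gives the chromosome, start and end of the intervals the authors called. BWA is named, without a version, in the submitters' processing notes. Of the peak caller, threshold, use of input and build, the sources used here say nothing. Positions were read as inclusive, and the X chromosome was left out (7 FOXA2 and 181 POL2 intervals at PD12). Distances ran from the middle base of a FOXA2 interval to the nearest base of a domain. The POL2 domains named here begin and end on steps of 200 bp, which limits how finely their ends are known. Overlap meant at least 1 bp. Shares have exact (Clopper-Pearson) binomial limits, densities exact Poisson limits, and ratios of densities exact binomial limits on how the counts divide. Distance and overlap functions were tested on simulated data. Windows of 500 kb used every 50th bin. The named regions were the 10 domains with most FOXA2 centres (ties by width) and the FOXA2 intervals that were the 10 widest inside, 10 nearest outside and 10 farthest; a choice of these is described. Members and lists were chosen with earlier results of these data known. The alternatives were the position used, joined or wide domains, FOXA2 width, close intervals counted once, and 2 added later. Python 3.11.15, numpy 2.4.6, pandas 2.3.3, scipy 1.17.1 and matplotlib 3.10.9 were used.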

Additional observations from a re-analysis of the deposited data

How the results depend on the processing

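Over 4 results and 9 alternatives, 23 of 36 values stayed within the 95% limits of the reported value, 13 moved outside them, and in no alternative did the density outside domains exceed that inside. The share of FOXA2 inside POL2 (20.2%) was 30.4% in the 50% widest and 9.93% in the 50% narrowest FOXA2 intervals, and 15.0% with domains of 5 kb or more. The share within 10 kb (31.1%) was 44.3%, 17.9% and 22.9% in the same order. The ratio of densities (8.47) was 14.6 in the 50% widest and 3.69 in the 50% narrowest intervals. The share of domains holding FOXA2 (1.63%) was 1.24% and 0.409% with these, 1.09% with FOXA2 intervals also in the adult list, 2.15% with domains of 5 kb or more and 2.17% with domains joined across gaps of up to 5 kb. The last 5 follow in part from fewer intervals or fewer domains entering the count. With domains of 5 kb or more, the shares inside and within 10 kb could only fall or stay, since only domains were left out. The cause of the other changes was not tested. The 2 alternatives with FOXA2 intervals or domains also in the adult list were chosen after the data were seen. No paired analysis was possible because there was 1 library for each antibody. The planned settings for genes with both marks, for the share of FOXA2-bound genes with POL2 and for the forkhead motif were not run, since neither an annotation nor a genome of the files' build was used here. Unknown depth limits every share.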

Other observations

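On the X chromosome, left out above, 1 of 7 PD12 FOXA2 centres lay inside one of 181 PD12 POL2 domains, and the median distance of the 7 was 161 kb.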
